A study of Mus musculus with 34 samples.

Results

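A set of 10 genes that cut proteins into peptides and load the peptides for display to T cells was followed through the life of the mouse cornea. They are Psmb8, Psmb9 and Psmb10, the inducible catalytic subunits of the immunoproteasome, Psme1 and Psme2, the subunits of the PA28 proteasome activator, Tap1 and Tap2, the paired subunits of the peptide transporter TAP, Tapbp (tapasin), B2m (beta-2 microglobulin) and Cd74, the invariant chain of class II MHC. For each gene the array probe set that carries its symbol and no other was used. All 10 genes had 1 such probe set, out of 19938 genes with a probe set of 1 symbol, and 9 of the 10 passed the filter on low values together with 12998 genes in all. Cd74 did not pass it.

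Gene expression was measured on Affymetrix arrays in the whole cornea of wild-type CB6 mice at 12 ages. Before birth these were E14.5 (embryonic day 14.5), E15.5 and E17.5, with 3 arrays each. After birth there were again 3 arrays at P3 (3 days after birth), at P7, at P14, at P28 and at 2 months, and 2 arrays at 6 months, at 1 year, at 18 months and at 2 years, which makes 32. The series also held 1 array of epithelium at P28, detached with the protease dispase, and 1 array of stroma at P7, taken by laser capture from sections of the eye. All mice were untreated, and the RNA was amplified before it was labelled. Whether arrays of the same age stem from different animals is not given in the labels, and the p-values therefore reflect the spread of these samples alone, which may be technical. At 2 months, replicates 3 and 2 carry the identifiers 1A and 1B, and what these mean is not given either. The small number of arrays limits the precision. Values are the deposited linear intensities of a probe set, which show how one gene changes between samples and not how much of it there is relative to another gene. Differences are on the log2(intensity + 16) scale with the standard error (SE) of the fit. A gene was called when its adjusted p was under 0.05 and its difference was at least 1.

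The constitutive proteasome degrades most cell proteins. Interferon-gamma and some cell types switch in Psmb8, Psmb9 and Psmb10 in place of the constitutive catalytic subunits Psmb5, Psmb6 and Psmb7, and the exchanged particle yields more peptides that fit class I MHC. PA28 opens the core particle, TAP pumps peptides into the endoplasmic reticulum, tapasin holds the empty class I molecule at TAP, and B2m is the light chain shared by all class I molecules. Cd74 guards the groove of class II MHC, the display molecule of dendritic cells, macrophages and B cells. The healthy cornea has few such cells and is known as a site of immune privilege.

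Of the 10 genes, 5 lie close together in the mouse MHC on chromosome 17 (RefSeq annotation of GRCm38.p6): Tapbp at chr17:33919478-33929290, Psmb9 at chr17:34182030-34187330, Tap1 at chr17:34187556-34197225, Psmb8 at chr17:34198195-34201454 and Tap2 at chr17:34204479-34216321. Psme1 and Psme2 neighbour each other on chromosome 14, at chr14:55578494-55581527 and chr14:55587440-55591101. Psmb10 is at chr8:105935728-105938392 and B2m at chr2:122147687-122153082, while Cd74 lies on another chromosome.

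The stretches of Psmb9, Tap1, Psmb8 and B2m below are shown because they are the DNA upstream of genes that moved very differently in these data. The last stretch lies inside the transcript of Psme1 and is shown for its match. Psmb9 and Tap1 are read away from each other out of 1 interval of 225 bases, Psmb8 had the largest change with age of the 10 genes, and B2m had no called change. RefSeq promoters, from 250 bases before to 50 after a start, were searched on both strands for the letters GAAA, any 2 bases and GAAA again (the core of the interferon-stimulated response element, ISRE) and TTCNNNGAA (the gamma-activated site, GAS, bound by STAT factors). Letters in capitals are matches. All sequences are RefSeq, GRCm38.p6, plus strand, 5′ to 3′.
Psmb9 to Tap1 interval, chr17:34187331-34187555: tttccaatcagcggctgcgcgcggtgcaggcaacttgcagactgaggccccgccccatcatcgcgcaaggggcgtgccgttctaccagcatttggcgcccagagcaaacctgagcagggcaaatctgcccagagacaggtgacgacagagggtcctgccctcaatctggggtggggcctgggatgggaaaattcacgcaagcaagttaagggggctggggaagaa
Psmb8 upstream, chr17:34197945-34198194: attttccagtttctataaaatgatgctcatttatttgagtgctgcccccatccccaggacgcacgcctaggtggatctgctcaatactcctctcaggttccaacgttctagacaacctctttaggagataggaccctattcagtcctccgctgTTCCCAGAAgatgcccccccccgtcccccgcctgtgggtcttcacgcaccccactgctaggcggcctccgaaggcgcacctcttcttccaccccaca
B2m upstream, chr2:122147437-122147686: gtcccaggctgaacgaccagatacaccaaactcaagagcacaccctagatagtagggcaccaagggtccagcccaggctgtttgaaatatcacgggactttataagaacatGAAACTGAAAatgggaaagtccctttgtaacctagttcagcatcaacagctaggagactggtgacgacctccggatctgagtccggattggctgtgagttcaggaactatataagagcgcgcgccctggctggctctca
Psme1 match, chr14:55578497-55578518: ctgtgcTTTCGCTTTCccttcc

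The GAS letters were found in Psmb8, with the first base 97 bases before the start, and in 8.3% of all 32851 promoters. The ISRE core was found in B2m, with its first base 139 bases before the start, and in Psme1, on the opposite strand 10 bases into the transcript, and in 3.44% of all promoters. Neither string occurred in the promoters of Psmb9, Psmb10, Psme2, Tap1 or Tapbp. Tap2 had no promoter in the table used here, and Cd74 was not searched. A match is a description of these letters only.

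On the whole-cornea arrays the median of the probe sets with 1 symbol lay between 225 and 265, and across genes 28 within-age pairs had r of 0.879 to 0.985. The arrays fell into 2 sets: 8 probe sets without a gene symbol read at least 1501 on all 18 arrays of E14.5 to P14 and at most 12.8 on all 14 arrays of P28 to 2 years. Between P14 and P28 age and array set cannot be told apart, so differences that cross this line carry both. Genes of tissues beside the cornea stood out on some arrays: lens genes on E14.5 replicates 2 and 3, P14 replicate 2, 2 months replicate 1 and 6 months replicate 2, skeletal muscle genes on E17.5 replicates 1 and 3, retina genes on 6 months replicate 1 and blood genes on all 3 arrays of E14.5. The corneal label fitted its epithelium markers better at P14, where the 10 summed to 47760 to 61095, than at E14.5, with 5674.7 to 9980.2. Tissue beside the cornea was still read at later ages. The lens genes summed to 2491.5 to 67632 at P14 and to 3339 to 86204 at 2 months. The skeletal muscle genes summed to 3658.4 to 45316 at E17.5.

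The genes fell into 3 kinds of course. Psmb8 and Psmb9 climbed more than 20-fold between E14.5 and 6 months. Psmb8 was above the array median on 22 of 32 arrays and Psmb9 on 23. Both lay below it on every embryonic array, so these folds start from low values. Psmb10, Psme1, Psme2, Tap1 and Tapbp spanned 2.46-fold to 3.61-fold between their lowest and highest ages. Tap2 and B2m varied by less than 2-fold, and Cd74 stayed below the array median on all 32 arrays. By the moderated F-test over the 12 ages, 7 of the 9 genes tested were called, against 40.6% of all genes tested. The largest F belonged to Psmb9 (adjusted p = 5.85e-13 by limma), followed by Psmb8 (adjusted p = 6.06e-10). Within the 18 arrays of E14.5 to P14 alone, Psmb8, Psmb9 and Tap1 were called, 3 of 9 against 18.5% of all genes. Within the 14 arrays of P28 to 2 years none of the 9 was called, against 6.89% of all genes, although Psme2 and Tapbp had an adjusted p of 0.0371 and 0.0265 by limma with spans of 0.75 and 0.57.

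**Figure D1:**
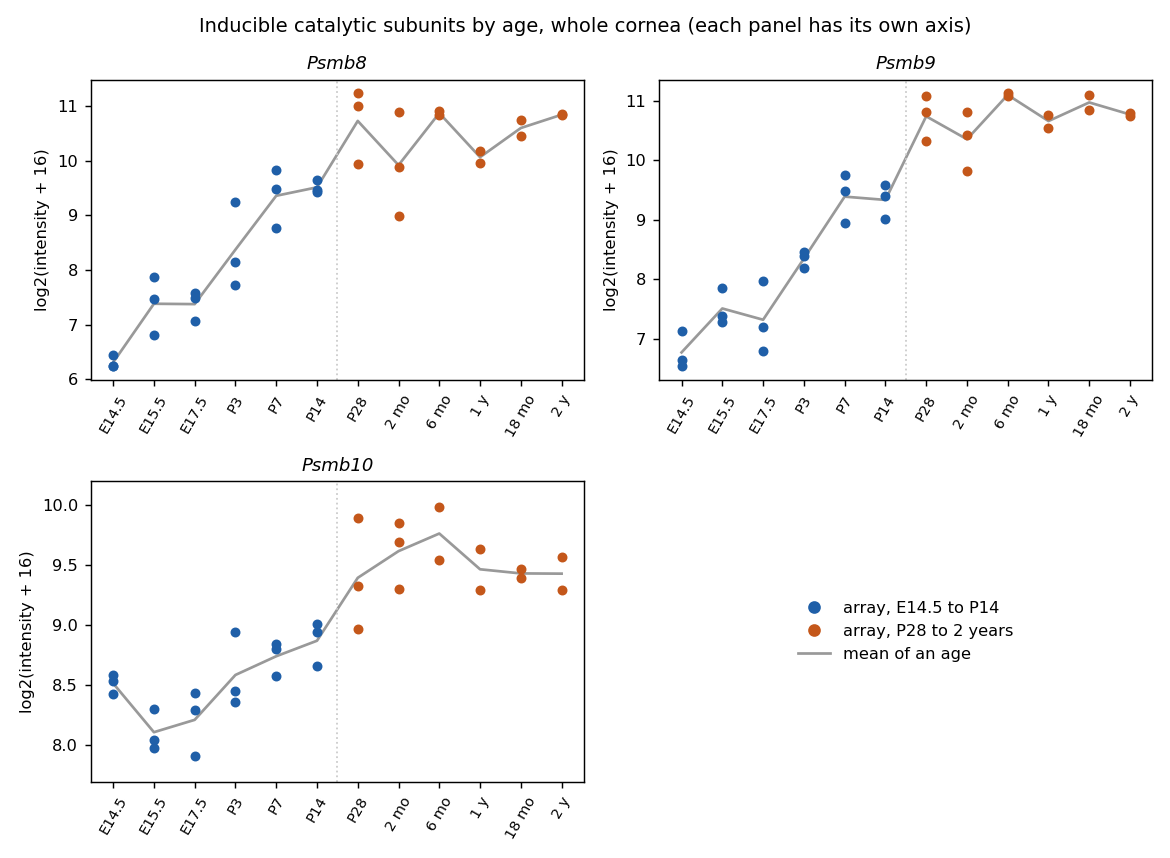
Psmb8, Psmb9 and Psmb10 in whole cornea, with log2(intensity + 16) on the vertical axes and the 12 ages on the horizontal ones. Points are arrays (3 per age to 2 months, then 2), lines join the age means, and the dotted line marks the change of array set. The age means of Psmb8 span 4.56 and those of Psmb9 4.33, against 1.65 for Psmb10.

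Psmb8 replaces Psmb5 in the immunoproteasome. Its intensity was 59.7, 71.2 and 59.5 on the 3 arrays of E14.5, 96.7, 218 and 160.4 at E15.5 and 118, 175 and 163 at E17.5. It was 589, 267 and 197 at P3, 419, 891 and 698 at P7 and 783, 691 and 673 at P14. All 6 arrays of P7 and P14 lay above the 9 arrays of E14.5, E15.5 and E17.5 with no overlap, and P3 spread between them. Psmb8 then read 2385, 2034 and 971 at P28 and 1870.5, 495 and 923 at 2 months. It read 1909 and 1802 at 6 months, 971 and 1143 at 1 year, 1706 and 1375 at 18 months and 1808 and 1824 at 2 years. The 3 arrays of 2 months differed among themselves by more than any later age, with replicate 2 below every array of P14. With the ages put in order of their means, only 2 neighbours were separated without overlap, E17.5 over E14.5 and 18 months over 1 year.

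Psmb8 was higher at P7 than at E17.5 by 1.98 (SE 0.39, adjusted p = 0.0012 by limma). At P14 it was higher than at E14.5 by 3.20 (SE 0.39, adjusted p = 5.95e-07 by limma), a difference within 1 array set. At 2 months it was higher than at E14.5 by 3.61 (SE 0.39, adjusted p = 4.93e-08 by limma), or 12.2-fold. These 3 calls held under every alternative tried. P28 exceeded P7 by 1.37 (SE 0.39, adjusted p = 0.00814 by limma). That call was lost without P28 replicate 1, where the difference was 1.12 (adjusted p = 0.0558 by limma), and without P7 replicate 1 (adjusted p = 0.0617 by limma). Before birth Psmb8 was higher at E17.5 than at E14.5 by 1.07 (SE 0.39, adjusted p = 0.0426 by limma), and this call did not last when E14.5 replicate 1, 2 or 3 or E17.5 replicate 2 or 3 was left out (adjusted p of 0.0632 to 0.109 by limma).

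Psmb9 is the partner of Psmb8 that replaces Psmb6. Its intensity was 76.7, 124 and 83.9 at E14.5, 139, 151 and 216 at E15.5 and 130.2, 94.6 and 235 at E17.5. It was 320.1, 276 and 336 at P3, 477, 844 and 697 at P7 and 756, 661 and 499.6 at P14. Every postnatal array lay above every embryonic one, and P7 and P14 overlapped each other. The later values were 2157.5, 1791 and 1266 at P28, 1779.9, 894 and 1364 at 2 months and 2223.5 and 2145 at 6 months. They were 1487 and 1733 at 1 year, 2174 and 1838 at 18 months and 1773 and 1697 at 2 years. All 14 arrays from P28 on lay above all arrays up to P14, with 2 months replicate 2 the nearest to them.

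Psmb9 was higher at P7 than at E17.5 by 2.07 (SE 0.27, adjusted p = 1.15e-05 by limma) and at P14 than at E14.5 by 2.57 (SE 0.27, adjusted p = 6.06e-08 by limma). At 2 months it was higher than at E14.5 by 3.59 (SE 0.27, adjusted p = 1.05e-10 by limma), or 12-fold. P28 exceeded P7 by 1.35 (SE 0.27, adjusted p = 4e-04 by limma). All 4 of these calls held under every alternative tried.

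Psmb10, which replaces Psmb7, had a smaller and later change. Its intensity was 367, 329 and 355 at E14.5 and 500.4, 475 and 388 at P14, then 906, 616 and 813 at 2 months and 731 and 994 at 6 months. The 2-month arrays lay above all 18 arrays of E14.5 to P14. The difference of 2 months over E14.5 was 1.101 (SE 0.20, adjusted p = 8.14e-05 by limma), and without 2 months replicate 1, an array high in lens genes, it was 0.99 and under the fold minimum. P14 and E14.5 differed by 0.36 (95% interval -0.06 to 0.77), which was not called. The difference of P28 over P7 was 0.65, also under the minimum (adjusted p = 0.0134 by limma).

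Psme1 and Psme2 encode the alternating subunits of PA28. Psme1 read 1871.5, 1746 and 2059.7 at E14.5 and 1655.5, 1700.2 and 1795 at E17.5, then 2326, 2757 and 2639.8 at P7, 4546, 3946 and 3505 at P28 and 3809, 2989.8 and 3362 at 2 months. Its 3 arrays of P7 lay above all 12 earlier ones, and its 14 arrays from P28 on lay above all 18 arrays up to P14. No comparison of Psme1 reached the fold minimum, the closest being 2 months over E14.5 at 0.83 (SE 0.13, adjusted p = 9.88e-06 by limma), and the span of its age means was 1.30.

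Psme2 followed a similar course with a peak at P28, an age at which other proteasome genes were high as well (given below). It read 1896, 1680.3 and 1748 at E14.5, 2503, 2850.1 and 2405 at P7 and 3432, 2904 and 2546 at P14. It read 5775, 5597 and 4510.4 at P28, then 3975, 2518 and 3044 at 2 months and 4279.7 and 4409 at 6 months. All 3 arrays of P28 lay above the other 29 whole-cornea arrays. P28 exceeded P7 by 1.03 (SE 0.15, adjusted p = 1.76e-05 by limma), a call that ended at 0.72 under quantile normalization and at 0.96, 0.98 and 0.98 without P28 replicate 1, P28 replicate 2 or P7 replicate 3. The difference of 2 months from P28 was -0.75 (SE 0.15, adjusted p = 0.00202 by limma), under the fold minimum.

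Tap1 and Tap2 differed in how far they moved. Tap1 read 185, 226 and 168 at E14.5, 243, 372 and 327 at E15.5 and 216, 218 and 147 at E17.5, then 422, 335 and 459 at P14 and 353, 333 and 354 at 2 months. Its E15.5 arrays lay above those of E14.5 and E17.5, and its P14 arrays above those of E14.5. The difference of P14 over E14.5 was 1.01 (SE 0.21, adjusted p = 0.000435 by limma), just past the minimum. It dropped under it, to between 0.92 and 0.98, when E14.5 replicate 1 or 3 or P14 replicate 1 or 3 was left out. At 2 months Tap1 was 0.80 above E14.5 (SE 0.21), against 3.59 for Psmb9, which starts at the other end of the 225 bases printed above.

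Tap2 was above the array median on 8 of 32 arrays. It read 204, 179 and 197 at E14.5, 166, 238 and 249 at P14, 289.9, 296 and 245 at P28, 217, 231 and 207 at 2 months and 310.3 and 288 at 18 months. The arrays of P14 overlapped those of E14.5, while those of 2 months all lay just above them. Tap2 was called in no comparison. Its F-test had an adjusted p of 0.000145 by limma, but its span of 0.88 was under the minimum. Tapbp, whose product bridges TAP and the class I molecule, read 115, 229 and 415 at E14.5, 255, 587 and 339 at E17.5 and 527, 496 and 463 at P14. It read 595, 565 and 542 at 2 months and 787 and 922 at 18 months. The 3 arrays of E14.5 spread widest, and each lay below all arrays of P14 and later.

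Tapbp was higher at P14 than at E14.5 by 1.09 (SE 0.27, adjusted p = 0.00273 by limma) and at 2 months than at E14.5 by 1.28 (SE 0.27, adjusted p = 0.000405 by limma). Without E14.5 replicate 1, the lowest array of Tapbp, those differences were 0.65 and 0.84, and neither was called. When the 2 groups of P14 and E14.5 were fitted alone, the adjusted p was 0.0837 by limma. E17.5 differed from E14.5 by 0.69 and was not called, but it reached 1.11 (adjusted p = 0.00191 by limma) without E14.5 replicate 3, which was high in lens genes.

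**Figure D2:**
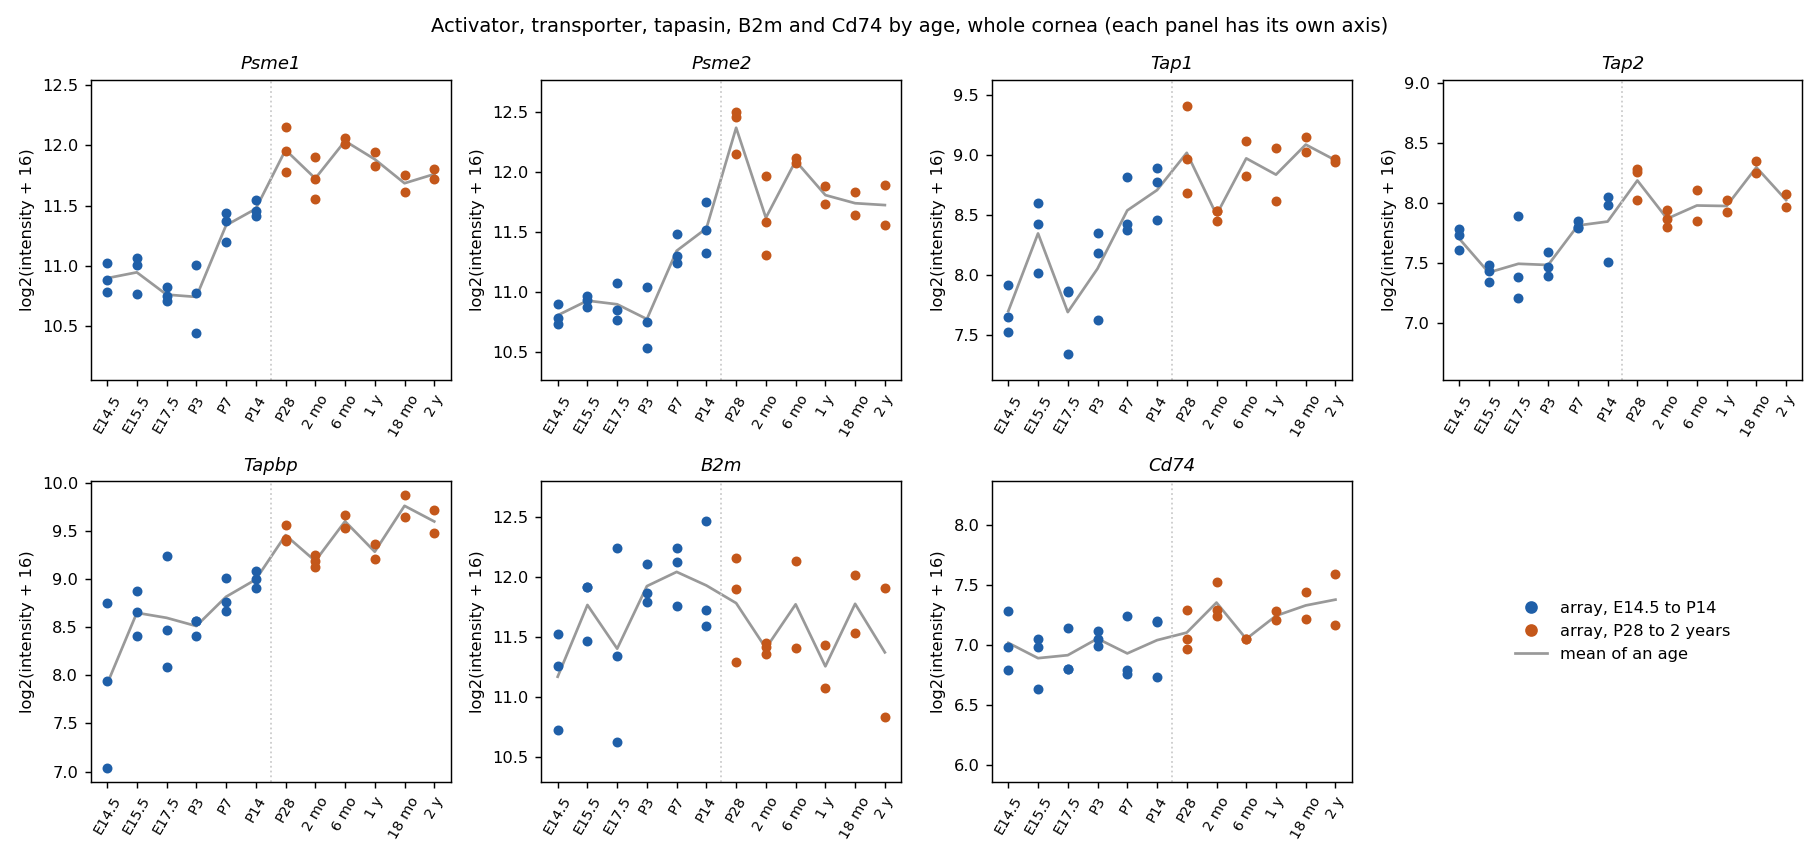
Psme1, Psme2, Tap1, Tap2, Tapbp, B2m and Cd74 in whole cornea, with log2(intensity + 16) on the vertical axes and the 12 ages on the horizontal ones. Points are arrays, lines join the age means and the dotted line marks the change of array set. Psme2 peaks at P28, Tapbp spans 1.85 and the arrays of B2m scatter within most ages.

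B2m showed no called difference at any age. It read 2439.7, 2932 and 1679.8 at E14.5, 2581, 1565 and 4842 at E17.5, 4842, 4450.5 and 3459 at P7, 5656.5, 3079.8 and 3378 at P14 and 2612.5, 2719 and 2780.2 at 2 months. Its arrays overlapped between most ages, and its F-test had an adjusted p of 0.241 by limma. The difference of 2 months over E14.5 was 0.24, with a 95% interval of -0.45 to 0.92. That interval ends below the estimates of Psmb8 and Psmb9 but includes the 0.80 of Tap1. P7 over E17.5 was 0.64 and was called, at 1.06 (adjusted p = 0.0361 by limma), once E17.5 replicate 3 was left out, an array high in skeletal muscle genes. Cd74 ranged from 83.5 to 176 over the 32 arrays, all below the array median, and its age means spanned 0.49. It was not tested. In a fit without the filter its F-test had an adjusted p of 0.109 by limma.

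Counted over the comparisons, the called genes all moved upward. Of the 9 genes tested, 1 rose at E17.5 against E14.5 (5.87% of all genes rose and 1.4% fell) and 2 rose at P7 against E17.5 (2.82% rose and 2.17% fell). At P14 against E14.5, 4 rose (8.69% rose and 2.69% fell), with a median difference of 0.76 over the 9 genes against -0.07 over all genes tested. At P28 against P7, 3 rose (5.95% rose and 4.57% fell), with medians of 0.64 and 0.09. At 2 months against E14.5, 4 rose (10.3% rose and 6.02% fell), with medians of 0.83 and 0.01. No gene of the 9 fell in these comparisons. At P28 against P7 quantile normalization changed the split of all called genes to 480 risen and 623 fallen, in place of 773 and 594, and Psmb8 and Psmb9 were among its rises. Centring each array on its median moved the median of all genes to 0.15 at P28 against P7 and to -0.18 at 2 months against P28.

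**Figure D3:**
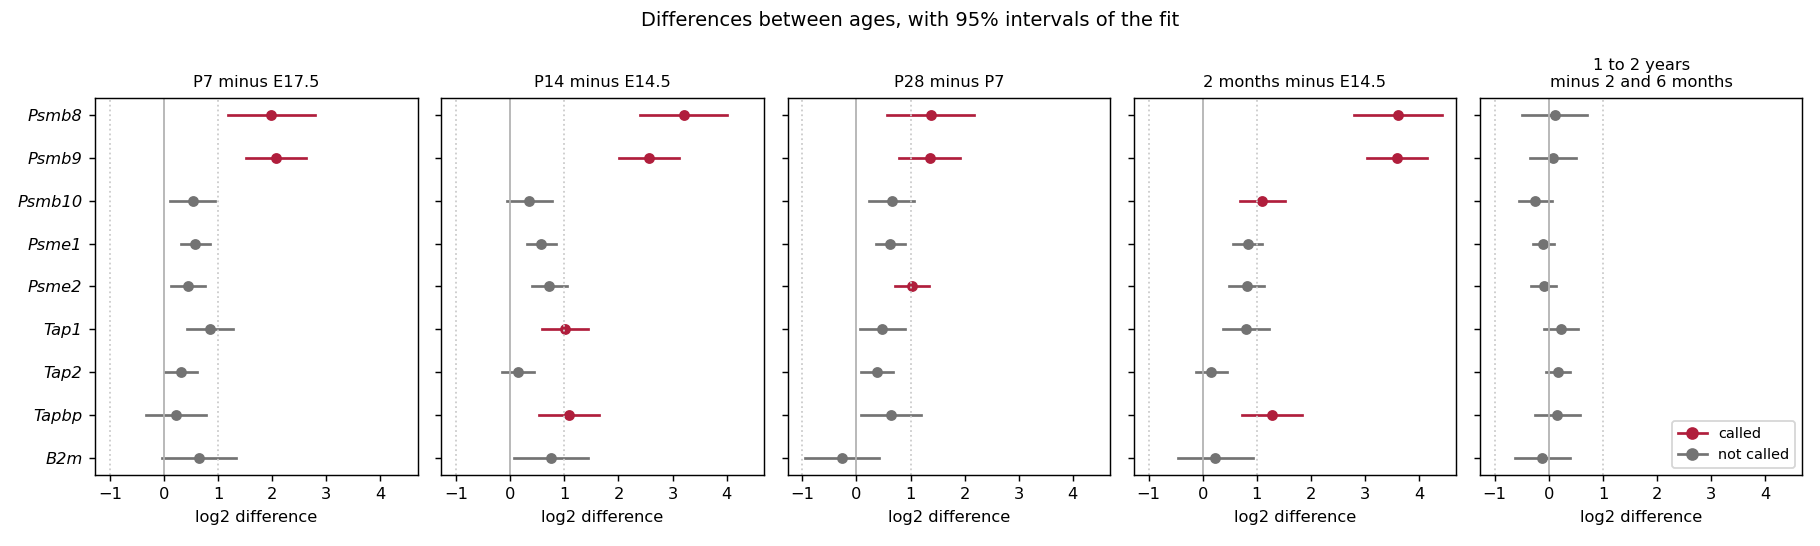
Log2 differences between ages for the 9 tested genes (horizontal axes), with 95% intervals of the fit and called genes in red. Dotted lines mark the fold minimum at 1 and -1. Psmb8 and Psmb9 are called in the first 4 panels, and in the comparison of 1 to 2 years with 2 and 6 months all 9 intervals include 0.

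In steps from one age to the next, 5 rises and 0 falls were called over 11 steps, where 1.39% of all tests were rises and 1.1% falls. Psmb8 rose at E15.5 against E14.5 by 1.07 (SE 0.39, adjusted p = 0.0345 by limma), with 7.35% of all genes risen at that step. Psmb9 rose at P3 against E17.5 by 1.03 (SE 0.27, adjusted p = 0.0167 by limma) and again at P7 against P3 by 1.04 (SE 0.27, adjusted p = 0.016 by limma), steps at which 0.785% and 1.35% of all genes rose. Psmb8 differed by 1.00 and 0.98 at these 2 steps, with adjusted p-values of 0.0909 and 0.102 by limma. The step from P14 to P28, which spans the change of array set, held the other 2 rises: 1.41 (SE 0.27, adjusted p = 0.000402 by limma) for Psmb9 and 1.21 (SE 0.39, adjusted p = 0.0196 by limma) for Psmb8, with 4.15% of all genes risen. Psme2 differed by 0.84 (SE 0.15, adjusted p = 0.000248 by limma) there, under the fold minimum.

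Between P28 and 2 months no gene of the 9 was called, with 0.615% of all genes risen and 1.5% fallen. Only Psme2 had an adjusted p under 0.05 (0.00202 by limma), and its difference of -0.75 was under the fold minimum. The differences ran between -0.81 for Psmb8 and 0.22 for Psmb10. Psmb8 was called lower at 2 months once P28 replicate 3 was left out, at -1.20 (adjusted p = 0.0423 by limma), or 2 months replicate 1, at -1.29 (adjusted p = 0.0197 by limma). For ageing, the arrays of 1 to 2 years were set against those of 2 and 6 months as means of their age means. None of the 9 genes was called, while 0.123% of all genes rose and 0.554% fell. The lowest adjusted p of the 9 was 0.396 by limma, for Psmb10. The differences lay between -0.25 (Psmb10) and 0.22 (Tap1). The 95% interval was -0.50 to 0.71 for Psmb8 and -0.35 to 0.49 for Psmb9, so a change of 2-fold lay outside it for both genes.

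The proteasome genes that are not inducible were measured on the same arrays. The 3 constitutive catalytic subunits Psmb5, Psmb6 and Psmb7 were not called in any of the comparisons above. At P14 against E14.5 they differed by -0.32, -0.23 and -0.19. None of the 11 other subunits of the 20S core particle was called in these comparisons. The same held for the 17 subunits of the 19S cap, which recognises ubiquitin-tagged proteins. The medians of these lists were 0.01 and -0.09 at 2 months against E14.5. The F-test over the 12 ages called 1 of the 3, 4 of the 11 and 4 of the 17, against 40.6% of all genes. The 11 core subunits summed to 23474 to 29636 at P3 and to 43647 to 49036 at P28, across the change of array set. At 2 months they summed to 31956 to 43830. The 17 cap subunits summed to 26945 to 31804 at P7, 37523 to 39962 at P28 and 26757 to 32390 at 2 months. A high level at P28 was thus not particular to Psme2. Of 6 other activators and assembly factors, Psmg2, a chaperone of core assembly, was lower at 2 months than at E14.5, a difference of -1.22, and than at P28, a difference of -1.04.

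Of 16 listed class I heavy chains, 8 had a probe set of 1 symbol: H2-Q2, H2-Q4, H2-Q10, H2-T10, H2-T24, H2-M3, H2-Bl and H2-M2. The listed H2-K1 and H2-D1 had none, so their course with age is not shown here. Of the 8, 5 were tested, and none was called in the comparisons above. These genes are near-identical copies, so their probe sets may read each other. Among 7 genes of peptide loading and trimming, Erap1, the aminopeptidase that trims peptides in the endoplasmic reticulum, rose by 1.75 at P14 and by 1.77 at 2 months, both against E14.5. Of 12 listed class II genes 7 were tested. At P28 against P7 the class II alpha chain H2-Aa rose by 1.17 and H2-DMa, which exchanges class II peptides, fell by 1.49. H2-Aa was above the array median on only 2 of 32 arrays, the least that the filter allows. Its mean intensity was 116 at P7 and 337 at P28, so its rise lies near the floor and rests on few arrays.

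Some interferon-induced genes rose in the same comparisons. Of 28 listed, 15 were tested, of which 6 rose at P14 against E14.5, where 8.69% of all genes rose. There were 9 rises at P28 against P7 (5.95% of all genes) and 8 at 2 months against E14.5 (10.3%), and none fell. The median log2 level of this list, averaged over arrays, was 7.04 at E14.5, 7.56 at P14 and 8.20 at P28. Genes that passed the filter only on later, higher arrays could be called as risen but hardly as fallen. How many did so is not shown, so the shares of all genes are not a like comparison. The arrays of P28 spread widely for this list, with sums of 5752.2 to 18704 over the 22 genes with a probe set. Ifih1, a sensor of double-stranded RNA, rose by 2.79 at P14 and by 3.27 at 2 months, both against E14.5. Oasl2 rose by 3.20, Ifit3 by 2.96 and Ddx58 (the RNA sensor RIG-I) by 2.56 at 2 months against E14.5. At P28 against P7 the largest rises were those of Ifih1 (1.89), Ifit1 (1.85), Parp14 (1.79) and Oasl2 (1.70). Of 16 tested regulators of the pathway, 5 rose at 2 months against E14.5. They included Irf2 (1.72), Jak1 (1.37), Jak2 (1.13) and Ifngr1 (1.13), the kinases and a chain of the interferon-gamma receptor among them. Nlrc5, the class I transactivator, differed by 0.17 and was not called.

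Markers of other cells also differed between these ages. In bulk samples fewer cells of a type and less RNA per cell cannot be told apart. Of the 10 corneal epithelium markers, 9 rose at P14 against E14.5. Their sum was 47760 to 61095 at P14 and 72318 to 79004 at P28. The 10 keratocyte markers summed to 7031.7 to 13068 at E14.5 and 31430 to 42293 at P14. Their sum was then 20107 to 23749 at P28 and 9131.2 to 13062 at 6 months. The 9 vessel endothelium markers summed to 1671.6 to 1996.9 at P14 and 1206.1 to 1219.5 at P28. Of 23 macrophage and dendritic cell markers 22 had a probe set and 12 were tested. Itgam, an integrin chain of myeloid cells, rose by 2.46 at P14 and by 3.08 at 2 months against E14.5, and was the only one of the list that rose in both. Tyrobp, a signalling adaptor of myeloid cells, fell by 1.18 at 2 months against E14.5 (adjusted p = 3e-04 by limma), and the median difference of the 12 was -0.28 at P14 and -0.48 at 2 months. At P28 against P7 Itgam rose by 2.33 and Cd68, a lysosomal protein of macrophages, by 1.01, while the mannose receptor Mrc1 fell by 1.11. The summed level of the 22 was 5016.5 to 5483 at P14, 4139.6 to 6615.1 at P28 and 4389.3 to 5811.6 at 2 months, against 4657.3 to 6217.3 at E14.5. Of the 22, 9 were above the array median on 0 of 32 arrays, among them Ptprc, Adgre1, Itgax and Cd14, and Csf1r was above it on 1. Others were above it on many arrays: Cd68 on 32, Cx3cr1 on 30, Tyrobp on 27, Itgam on 18 and Mrc1 on 16. Of 12 lymphocyte markers 10 had a probe set and 2 were tested, and their sum lay between 1082.3 and 1649.1 at every age. The blood genes summed to 466.88 to 603.14 at P14, against 22816 to 33178 at E14.5. The part of these cells in the differences was not tested.

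The 3 arrays of P28 differed in the same order for most of the 10 genes. Replicate 1 was the highest for 8 of 10 genes and replicate 3 the lowest for 8 of 10, against 33.8% and 35.3% of all genes tested. Psmb8 was 0.50 above its age mean on replicate 1 and 0.78 below it on replicate 3. All 15 tested interferon-induced genes were highest on replicate 1 and lowest on replicate 3, with median deviations of 0.77 and -0.60. The 22 interferon-induced genes with a probe set summed to 18704 on the highest of these arrays and 5752.2 on the lowest. The 11 other core subunits of the proteasome had median deviations of -0.04 and -0.08 on replicates 1 and 3. Without replicate 1, only Psmb9 was called at P28 against P7, at 1.18 (adjusted p = 0.00464 by limma). At 2 months, replicate 2 was the lowest for 6 of 10 genes, against 42.1% of all genes, and was the lowest for all 11 other core subunits as well.

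**Figure D4:**
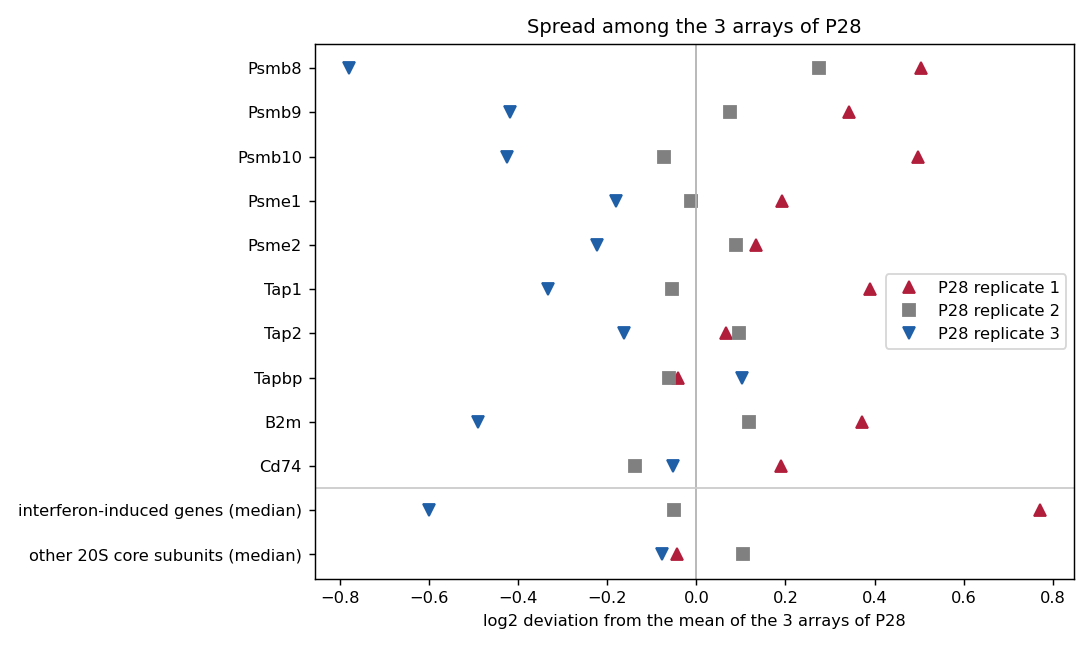
Deviation of each of the 3 arrays of P28 from their mean, in log2 units, for the 10 genes and for the medians of 2 lists. Replicate 1 lies highest for 8 genes and replicate 3 lowest for 8, and the interferon-induced genes have medians of 0.77 and -0.60 on these arrays.

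Each layer was measured on a single array and was not tested, and layer, age and method of isolation cannot be told apart. The floor of both arrays was higher than that of the whole-cornea arrays, with medians of 342 in epithelium and 357 in stroma, so they are compared only with each other. Psmb9 read 1162 in epithelium against 421 in stroma, and Psmb8 read 508 against 321. Psme2 read 2346.5 in epithelium against 823 in stroma, and Psme1 2444.5 against 1293. The log2 differences of epithelium from stroma were 1.49 for Psme2, 1.43 for Psmb9, 0.91 for Psme1 and 0.64 for Psmb8. B2m went the other way, with 1341 in epithelium and 2909.9 in stroma, a difference of -1.11.

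None of the 9 genes counted passed a 4-fold difference in either direction, against 0.576% of all genes higher in epithelium and 1.37% lower. Tap1 (0.07), Psmb10 (0.21), Tap2 (0.33) and Tapbp (0.35) differed by less than 0.4. Cd74 was below the median on both arrays, at 249 in epithelium and 253 in stroma. Of the 10 genes 8 read higher in epithelium, with a median difference of 0.34. Over all genes 5599 of 11107 read higher, with a median of 0.003. The median was 0.32 for the 11 other 20S core subunits (10 higher) and 0.35 for the 7 genes of peptide loading and trimming (5 higher). It was 0.04 for the 3 constitutive catalytic subunits and 0.11 for the 17 cap subunits. The epithelium array was at least 4-fold higher for 4 of 10 epithelial markers and at least 4-fold lower for 6 of 10 keratocyte markers, but also at least 4-fold lower for 14 of 16 lens genes and 5 of 8 counted skeletal muscle genes. The part of these tissues in the values above was not tested.

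**Figure D5:**
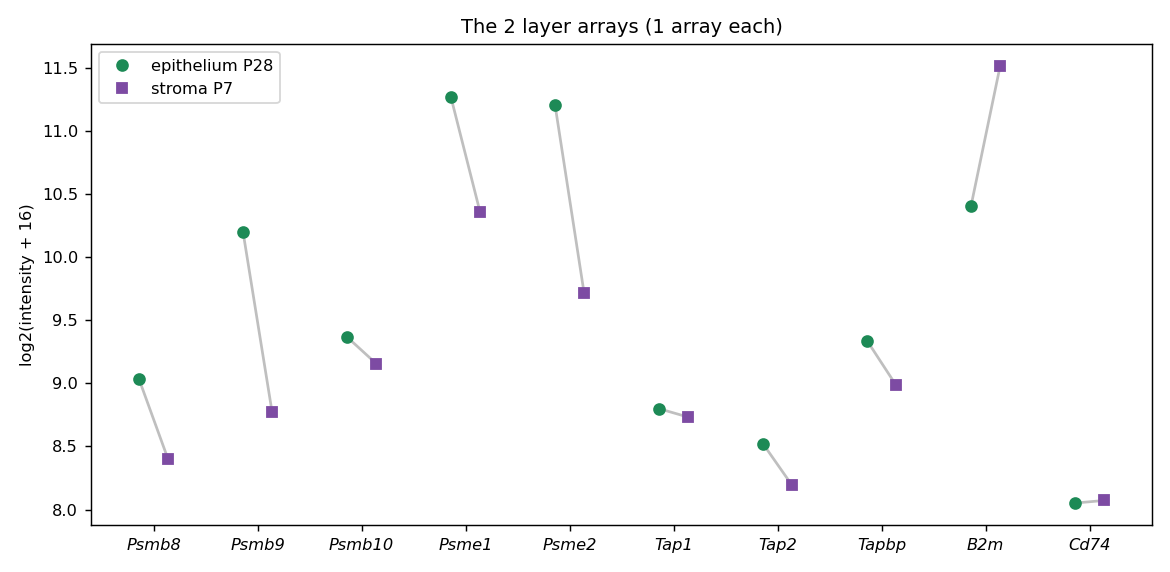
The 10 genes on the epithelium array of P28 (left point of each pair) and the stroma array of P7 (right point), as log2(intensity + 16), 1 array each. Psme2 and Psmb9 are higher in epithelium by 1.49 and 1.43, and B2m is lower by 1.11.

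The courses of the genes over the 12 age means were set beside those of 12989 other tested genes. This is a description across ages that share the change of array set and an overall trend with age. The genes most like Psmb8 were Ces2f (Pearson r of 0.995), Sh2d4a (0.990) and Scin (0.989). Psmb9 was most like Nmi (0.994), a protein that binds STAT and Myc factors, then Rasef (0.992) and Urah (0.991). Psmb10 was closest to Plau (0.981), the urokinase-type plasminogen activator, Psme1 to Riox2 (0.992), Psme2 to Thap6 (0.980), Tap1 to Rcan1 (0.986), Tap2 to Rbl1 (0.986) and Tapbp to Camk1d (0.989). No gene came as close to B2m, whose best were Septin7 (0.895), Ggh (0.834) and Il18r1 (0.831). Among the 10 genes, Psmb8 and Psmb9 were the most alike (0.987), and B2m had r between -0.10 and 0.29 with the other 8 tested.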

How the data were processed

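For each array the authors deposited linear-scale intensities, 1 for every probe set. Per the submitters' processing notes the tools were PLIER and Affymetrix Expression Console 1.1. The genome build and further steps are not given in the sources used here. The values of 35557 probe sets on 34 arrays, with 2 missing values, were used without further normalization, as log2(intensity + 16). Symbols came from the annotation table of the array: 21789 probe sets had 1 symbol, 1621 several and 12147 none. Probe sets that exceeded the median of their array (over probe sets with 1 symbol) on 2 or more whole-cornea arrays were retained, and each gene was represented by its brightest retained probe set, giving 12998 genes.

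Means of the 12 ages were fitted with limma 3.58.1 in R 4.3.3 (20 residual and 4.1 prior degrees of freedom) to the 32 arrays, with two-sided tests and Benjamini-Hochberg adjustment over all 12998 genes within a comparison. Calls required an adjusted p under 0.05 and an absolute log2 difference (for the F-test, a span of age means) of at least 1. The layer arrays entered no fit and were counted at 4-fold. Arrays were called high in a tissue when its list's median lay at least 2 log2 units above the 32-array median. Same-numbered arrays of 2 ages deviated together in 21 of 84 pairs (correlation over 0.1), so the numbers were not taken to pair samples. The fit was tested on simulated data.

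The 10 genes and the lists were chosen with earlier results of these data known. All 10 genes are named, with up to 4 called genes per list and comparison and the 3 genes most like each member in course; Nlrc5, Psmb5, Psmb6 and Psmb7 were named beyond that rule after their values were seen. Alternatives changed the filter, offset, normalization, moderation, thresholds, probe set rule, block and arrays used. They included the average of 2 months replicates 2 and 3 in place of both. RefSeq promoters of GRCm38.p6 gave the sequences.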

Additional observations from a re-analysis of the deposited data

How the results depend on the processing

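Of 14 called differences of single genes between ages, 7 held under all of up to 50 alternatives, 14 other differences were called under at least 1, and 0 reversed. Genes risen at E17.5 against E14.5 numbered 1, and 0 with an offset of 64, with array weights or at an adjusted p under 0.01 (0 to 1 with an array left out). Genes risen at P14 against E14.5 numbered 4, and 2 with an offset of 64 (2 to 4 with an array left out). Without the fold minimum 4 genes rose at P7 against E17.5, 6 at P28 against P7 and 7 at 2 months against E14.5, in place of 2, 3 and 4. With an array left out, 1 to 3 rose at P28 against P7. At 2 months against P28, 1 gene fell without the fold minimum or without the arrays high in lens genes, in place of 0, and 0 to 1 with an array left out. The 5 rises over the steps became 2 with an offset of 64, 3 under quantile normalization, 13 without the fold minimum, 1 at an adjusted p under 0.01 and 3 within the array sets, where the step from P14 to P28 has no value. Falls over the steps were 0, and 1 without the fold minimum or the lens-high arrays (0 to 1 with an array left out). The F-test called 7 genes, 3 within E14.5 to P14 and 0 within P28 to 2 years. In the layers 2 genes were higher and 1 lower in epithelium at 2-fold, in place of 0 and 0 at 4-fold. With the replicate number as a block (replicate block) the F-test called 7 genes and the comparisons gave 1, 2, 4, 3 and 4 rises, as without it. Leaving out P28 replicate 3 and 2 months replicate 2 together, chosen after seeing the data, left 3 rises at P28 against P7. The cause of these changes was not tested. With 2 or 3 arrays per age, and values near the array median for Tap2 and below it for Cd74, small differences were not detectable. Psmb8 and Psmb9 also lay below the array median before birth.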
